A study of Homo sapiens with 6 samples.

Results

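Small nucleolar RNAs (snoRNAs) work in the nucleolus on ribosomal RNA, and the repeat annotation behind these counts carries a few of them as repeat names. The names U3, U8, U13, U13_, U14 and U17 were taken from the locus identifiers by removing the copy number and running number. They covered 51 listed loci out of 433837, in 6 of 5230 repeat names. Within each name, the locus with the most reads over the 6 libraries was kept apart from the other loci. The libraries came from HEK293T, a transformed cell line of human embryonic kidney origin in which the SV40 large T antigen is expressed. In 3 libraries the cells had received a chimeric antisense oligonucleotide (ASO) against U7 small nuclear RNA, labelled as a U7 knockdown. In the other 3 they had received a control ASO directed against GFP, labelled as wild type, and both ASOs were transfected at 100 nM by lipofection. All cells were of 1 line, all RNA was total RNA depleted of ribosomal RNA, and the depth of knockdown is not in the labels. The series calls the 3 libraries of a group biological replicates.

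SnoRNAs fall into 2 classes named for short sequence boxes. Box C/D RNAs, such as U3, U8, U13 and U14, carry boxes C and D, and box H/ACA RNAs, such as U17, carry an ACA close to their 3′ end. Most box C/D RNAs guide methylation of the ribose in ribosomal RNA, and most box H/ACA RNAs guide the change of uridine to pseudouridine. U3, U8, U14 and U17 are known above all for the cleavage steps that cut the long ribosomal precursor into mature RNAs. U3 has genes of its own, whereas U14 and U17 are cut out of introns of host transcripts.

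The sequences below are shown because U17 held most of the reads and because the likeness of gene copies bears on how far reads can be placed on 1 locus. They are the annotated RNAs of GENCODE release 29 on GRCh38. The deposited identifiers carry no coordinates, so no listed locus was tied to an annotated gene. Capitals mark an ACA that ends 3 bases before the 3′ end in U17, and the first NTGATGA (box C) and the last CTGA (box D) in the U14 and U3 RNAs.
SNORA73A (U17): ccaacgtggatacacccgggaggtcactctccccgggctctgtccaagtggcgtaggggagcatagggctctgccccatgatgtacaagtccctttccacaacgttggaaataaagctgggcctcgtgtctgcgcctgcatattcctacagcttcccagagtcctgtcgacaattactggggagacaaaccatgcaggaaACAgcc
SNORA73B (U17): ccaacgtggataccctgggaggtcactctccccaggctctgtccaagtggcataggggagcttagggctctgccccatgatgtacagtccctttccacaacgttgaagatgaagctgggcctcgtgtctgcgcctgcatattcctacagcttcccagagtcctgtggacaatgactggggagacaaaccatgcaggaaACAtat
SNORD14A (U14): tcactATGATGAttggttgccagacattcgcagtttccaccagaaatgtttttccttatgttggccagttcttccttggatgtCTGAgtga
SNORD3A (U3): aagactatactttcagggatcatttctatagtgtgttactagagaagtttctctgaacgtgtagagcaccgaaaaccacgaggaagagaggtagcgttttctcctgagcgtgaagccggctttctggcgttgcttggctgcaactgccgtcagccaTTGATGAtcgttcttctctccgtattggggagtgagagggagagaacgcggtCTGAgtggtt

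SNORA73A, at chr1:28507366-28507571, and SNORA73B, at chr1:28508559-28508762, both lie on the plus strand inside RCC1 and SNHG3, and in every RCC1 transcript they are intronic. SNHG3 is the U17 host gene. An exon of an SNHG3 transcript overlaps SNORA73A, whereas SNORA73B is intronic in every SNHG3 transcript. The U17 RNAs are 206 and 204 bases long, align with 192 identical positions in 206 columns (93.2%), and share no identical run longer than 54 bases. SNORD14A lies at chr11:17074654-17074744 on the minus strand, intronic in every transcript of RPS13, a ribosomal protein gene. The 5 U14 genes compared, SNORD14A to SNORD14E, were 75.6% to 85.9% identical in pairs, with no shared run above 23 bases. SNORD3A lies at chr17:19188016-19188233 on the plus strand. The 5 U3 genes compared were 98.2% to 100% identical in pairs, and SNORD3B-1 and SNORD3B-2 were the same over all 218 bases. Reads from these U3 genes could be split, dropped or placed on another copy in the counting, which the tables do not show. The motifs were searched on the RNA strand only. Of 955 annotated snoRNA transcripts, 281 (29.4%) held the ACA at this place, and 304 (31.8%) held NTGATGA followed by CTGA.

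The listed loci of a library held between 1926892 and 2819540 reads, of which 12.1% to 21.8% fell in LSU-rRNA_Hsa and 16.5% to 21.6% in 7SK. The snoRNA names took 0.390% to 0.708% of the reads. The targeted RNA could not check the labels: loci named U7 held 10, 6 and 12 reads with the control ASO and 10, 4 and 6 reads with the U7 ASO, too few to test. The tables have no gene rows, so markers of the cell line could not be read.

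Reads on snoRNA loci came almost wholly from U17. Of 73094 reads over the 51 loci, U17_dup1_64816 held 58285 and U17_64813 held 12679. U17 made up 95.8% to 97.9% of the snoRNA reads in each library. Together the box C/D names counted 293, 260 and 354 reads with the control ASO, and 456, 388 and 373 with the U7 ASO. The U7 ASO libraries also held more listed reads, 2089822 to 2819540 against 1926892 to 2025985. Scaled to a common total of listed reads, the box C/D reads of the controls stood at 145, 135 and 179. Those of the U7 ASO libraries stood at 218, 165 and 132, so the groups overlapped, with U7 ASO replicate 3 lowest. Of the 51 loci, 34 held fewer than 20 reads over all libraries and 19 had a read in a single library. A read was counted in all 6 libraries at 14 loci. Loci differ in length, which the tables do not give, so these totals do not rank the RNAs by level.

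**Figure D1:**
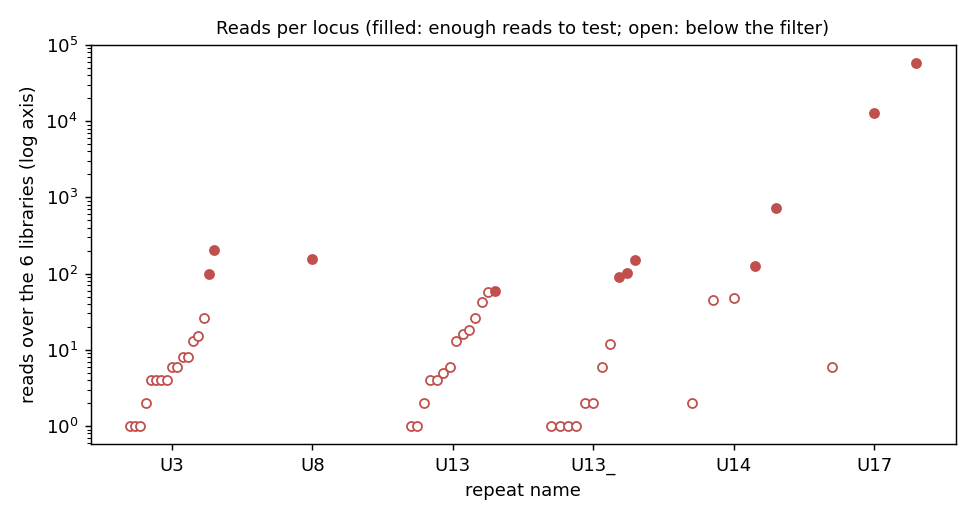
Reads of each of the 51 snoRNA loci summed over the 6 libraries, on a log axis, by repeat name. Filled points are the 11 loci with enough reads to test and open points the other 40. The U17 loci with 58285 and 12679 reads stand above all box C/D loci, the highest of which, U14_dup1_3487026, held 718.

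No snoRNA name passed the test between the ASO groups. Counts were summed over the loci of each name and tested with edgeR (quasi-likelihood test), and a name was called at a Benjamini-Hochberg adjusted p under 0.05 over all 2236 names tested. All 6 snoRNA names were tested, 0 were raised and 0 lowered, and 1, U17, had an unadjusted p under 0.05. An unadjusted edgeR p that low was found for 326 of the 2236 names tested. Over all names 57 (2.55%) were called, 34 raised and 23 lowered. With limma-voom U17 was called lowered, and the other 5 names were called in no alternative run. The median log2 fold change of the 6 names was 0.16, against −0.01 over all names tested. In 1 of the 6 names, U17, the groups did not overlap, which was so for 449 names (20.1%) overall. CPM is the read count scaled to a common effective library size, as edgeR's cpm gives it after TMM scaling.

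U17, the box H/ACA RNA, was lower with the U7 ASO in these libraries by an amount that did not pass. Its summed loci stood at 7283, 5803 and 6590 CPM with the control ASO and at 5372, 3604 and 4517 CPM with the U7 ASO. All 3 U7 ASO libraries lay below all 3 controls, with the second replicate lowest. The means were 6559 ± 741 and 4498 ± 884 CPM (SD, n = 3 each), a log2 fold change of −0.54 (SE 0.16, 95% interval −0.87 to −0.21, edgeR adjusted p = 0.0838). As a share of all listed reads U17 took 0.671%, 0.561% and 0.690% in the controls and 0.547%, 0.373% and 0.450% with the U7 ASO. The nearest libraries of the 2 groups were control replicate 2, with a Clopper-Pearson 95% interval of 0.551% to 0.572%, and U7 ASO replicate 1, with 0.537% to 0.557%. Those intervals overlap, and they cover counting error only. They take each count as independent, so they are too narrow if mates were counted apart. The adjusted p of U17 ran from 0.00252 to 0.413 over 13 alternatives. It was under the threshold in 4 of them, among them limma-voom (adjusted p = 0.0227) and the fit without U7 ASO replicate 1 (log2 fold change −0.68, adjusted p = 0.00252).

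**Figure D2:**
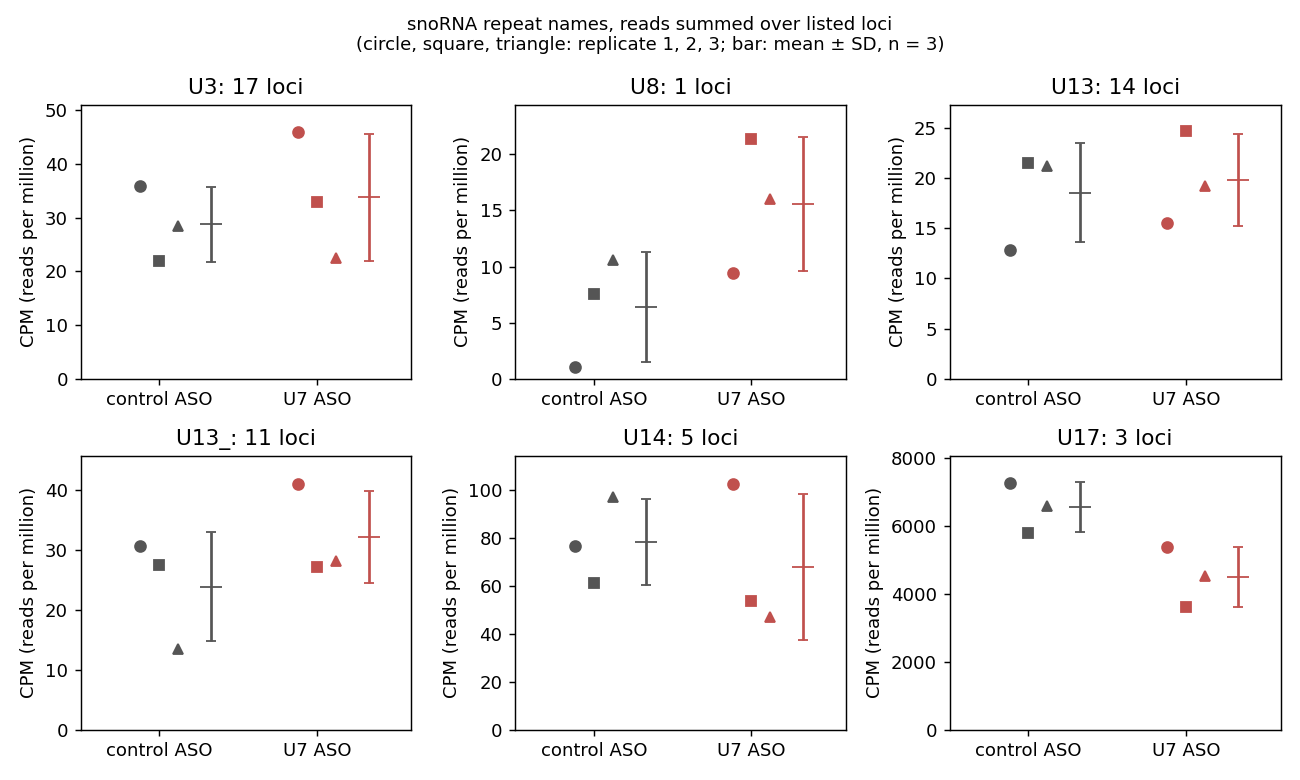
CPM of the 6 snoRNA names in each library, summed over their listed loci, with the mean ± SD of 3 libraries beside the points. In U17 all U7 ASO points, from 3604 to 5372 CPM, lie below the control points, from 5803 to 7283 CPM, and in the other 5 names the groups overlap.

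Of the 2 abundant U17 loci, the leading one had its U7 ASO libraries below all controls and the other did not. The separation at the leading locus was narrow, with control replicate 2 at 6117 CPM and U7 ASO replicate 1 at 6037 CPM. The groups stood fully apart in either direction at 2957 (20.6%) of all loci tested. Whether the loci differ from each other could not be settled, since the exact test of their ratio cannot give a p under 0.1 with these group sizes. In the control libraries U17_dup1_64816 held 11514, 9045 and 11447 reads, against 9544, 6786 and 9949 with the U7 ASO. U17_64813, 3 running numbers before it, held 2089, 1762 and 2216 reads in the controls and 1882, 1982 and 2748 with the U7 ASO. In a fit over all 14380 loci tested, U17_dup1_64816 went from 6937 ± 729 to 5228 ± 937 CPM (log2 fold change −0.41, SE 0.22, 95% interval −0.88 to 0.07, edgeR adjusted p = 0.540). U17_64813 stood at 1315 ± 107 and 1307 ± 171 CPM (log2 fold change −0.01, SE 0.23, 95% interval −0.50 to 0.49, edgeR adjusted p = 0.996), and its groups overlapped. Neither locus passed.

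The balance of these loci within a library does not depend on scaling. For each read on U17_64813 there were 5.51, 5.13 and 5.17 reads on U17_dup1_64816 in the control libraries and 5.07, 3.42 and 3.62 with the U7 ASO. The mean ratio was 5.27 ± 0.21 and 4.04 ± 0.90 (n = 3 each), lower in all 3 U7 ASO libraries. An exact two-sided permutation test gave p = 0.1, the smallest that 3 libraries against 3 allow. U7 ASO replicate 1, at 5.07, lay close to the controls, whereas replicates 2 and 3 lay well below them. The third listed locus of the name, U17_5063670, had 6 reads in control replicate 2 and 0 elsewhere.

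**Figure D3:**
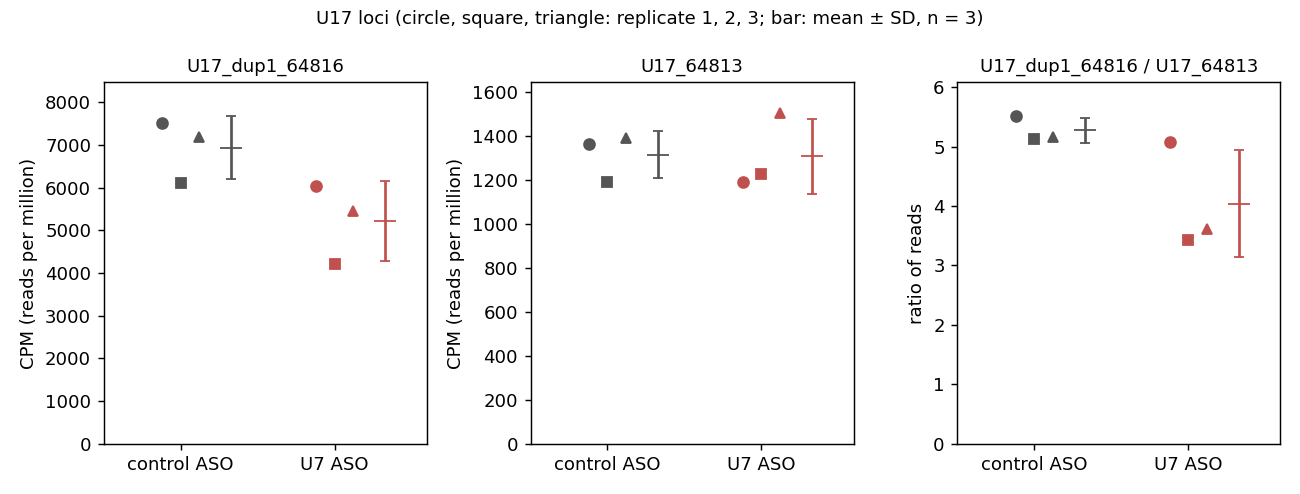
CPM of U17_dup1_64816 and of U17_64813 in each library, and the ratio of their reads, with the mean ± SD of 3 libraries. The ratio lies between 5.13 and 5.51 in the controls and between 3.42 and 5.07 with the U7 ASO, while U17_64813 has overlapping groups.

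Within 10 running numbers of U17_dup1_64816 there were 19 listed loci, of which 8 were tested, U17_64813 included, and 0 passed. Among all 14380 tested loci 713 (4.96%) were called. The neighbours were mostly Alu elements, with far fewer reads than the U17 loci. AluSx3_dup568_64818, 2 numbers further on, had 220, 270 and 270 reads in the controls and 222, 281 and 257 with the U7 ASO (log2 fold change −0.12, SE 0.28, edgeR adjusted p = 0.949). AluSg_dup680_64814, listed between the U17 loci, stood at 47.3 ± 15.7 and 53.3 ± 15.2 CPM. AluSg_dup679_64811 stood at 51.8 ± 6.91 and 76.8 ± 10.1 CPM (log2 fold change 0.57, SE 0.33, edgeR adjusted p = 0.598). It was the only 1 of these 8 loci whose groups did not overlap, a share near the 20.6% over all loci tested.

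U14, a box C/D RNA needed for making small-subunit ribosomal RNA, was the next most counted name. Its 5 listed loci held 143, 114 and 201 reads in the controls and 218, 130 and 132 with the U7 ASO. The groups overlapped, at 78.2 ± 17.9 and 67.6 ± 30.4 CPM (log2 fold change −0.22, SE 0.32, 95% interval −0.89 to 0.46, edgeR adjusted p = 0.827). The leading locus U14_dup1_3487026 held 76.5% of the reads, with 120, 72 and 162 in the controls and 166, 106 and 92 with the U7 ASO. It took 75.9% ± 11.2 of U14 reads per control library and 75.8% ± 5.93 per U7 ASO library. U14_3487024, 2 running numbers before it, held 16, 12 and 31 reads and then 46, 2 and 18, with U7 ASO replicate 2 lowest. The other copies lie together in the listing: U14_dup3_3680525 held 48 reads in all, U14_dup4_3680526 held 45 and U14_dup2_3680523 held 2.

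U3, the box C/D RNA that starts the cleavage of the ribosomal precursor, had 17 listed loci and few reads on any of them. They held 67, 41 and 59 reads in the controls and 98, 80 and 63 with the U7 ASO. The groups overlapped, at 28.8 ± 6.94 and 33.8 ± 11.9 CPM (log2 fold change 0.23, SE 0.39, 95% interval −0.59 to 1.05, edgeR adjusted p = 0.853). The leading locus U3_dup6_4653193 held 25, 18 and 40 reads in the controls and 46, 42 and 34 with the U7 ASO, 50.2% of the name. U3_dup4_4652779 held 19, 8 and 3 reads and then 43, 23 and 4, so replicate 3 was lowest in both groups. Its log2 fold change of 1.14 (SE 0.97, edgeR adjusted p = 0.814) ran from 0.32 without U7 ASO replicate 1 to 1.97 without control replicate 1. These were the only U3 loci tested, and 14 of the 17 held fewer than 20 reads over all libraries. The 16 copies other than the leading locus, summed, stood at 14.4 ± 6.90 and 17.2 ± 6.78 CPM (log2 fold change 0.25, SE 0.54, edgeR adjusted p = 0.878).

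U8, a box C/D RNA required for the large-subunit ribosomal RNAs, had a single listed locus, U8_4629508. It held 2, 14 and 22 reads in the controls and 20, 52 and 45 with the U7 ASO. The lowest U7 ASO library lay below the highest control. The means were 6.40 ± 4.87 and 15.6 ± 5.997 CPM (log2 fold change 1.27, SE 0.72, 95% interval −0.24 to 2.79, edgeR adjusted p = 0.438). The interval reaches from a small fall to a rise of several fold, so the count gives little precision. The fold change was 0.80 without control replicate 1 and 1.85 without control replicate 3. The only neighbour tested within 10 running numbers was AluJo_dup416_4629504, with 5, 17 and 20 reads in the controls and 29, 37 and 94 with the U7 ASO (log2 fold change 1.76, SE 0.65, edgeR adjusted p = 0.208). That value is from the fit over single loci, in which U8_4629508 had a log2 fold change of 1.49 (SE 0.76, edgeR adjusted p = 0.486). Of the libraries that met the count filter at U8_4629508, 2 were controls and 3 were U7 ASO libraries, with 3 needed. The controls alone would not have met it, so this rise is a description. At both U8_4629508 and AluJo_dup416_4629504 control replicate 1 was lowest. Strand is not stated for the counting, and whether the reads of both loci came from 1 transcript was not tested.

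U13, a box C/D RNA that pairs with small-subunit ribosomal RNA, is listed under U13 and U13_. The 14 loci of U13 held 24, 40 and 44 reads in the controls and 33, 60 and 54 with the U7 ASO, 18.5 ± 4.91 and 19.8 ± 4.60 CPM. Its log2 fold change was 0.10 (SE 0.47) with an edgeR adjusted p of 0.953. No U13 locus held more than 59 reads in all, and U13_dup1_2484483, with 6, 10 and 14 and then 4, 9 and 16 reads, was the only one tested. U13_dup4_64850 held 5, 6 and 6 reads in the controls and 1, 25 and 15 with the U7 ASO. U13_dup5_3583732 held 6, 16 and 0 reads and then 20, 0 and 0, so its reads came from 3 of the 6 libraries.

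The 11 loci of U13_ held 57, 51 and 28 reads in the controls and 87, 66 and 79 with the U7 ASO. The groups overlapped, at 23.8 ± 9.05 and 32.0 ± 7.68 CPM (log2 fold change 0.43, SE 0.42, 95% interval −0.44 to 1.30, edgeR adjusted p = 0.727). The 3 tested loci beneath this sum had fold changes of either sign, and none passed. U13__dup9_574694 held 8, 16 and 2 reads in the controls and 50, 44 and 32 with the U7 ASO, with all U7 ASO libraries above the controls. Its means were 5.77 ± 4.81 and 25.5 ± 7.22 CPM (log2 fold change 2.13, SE 0.74, 95% interval 0.54 to 3.72), and it did not pass over all loci (edgeR adjusted p = 0.168, unadjusted p = 0.0122). The fold change was 1.62 without control replicate 3 and 2.97 without control replicate 2. Of the libraries that met the count filter at this locus 1 was a control and 3 were U7 ASO libraries, with 3 needed, so the locus was tested through the group in which it was higher. U13__dup5_54183 held 24, 26 and 8 reads and then 10, 7 and 14, with overlapping groups (log2 fold change −1.05, SE 0.84, edgeR adjusted p = 0.791). U13__dup13_3169478 held 18, 4 and 14 reads and then 19, 14 and 32.

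The leading locus of U13_ depends on the libraries used to choose it. Over all libraries it was U13__dup9_574694, which took 14.04%, 31.4% and 7.14% of the U13_ reads in the controls and 57.5%, 66.7% and 40.5% with the U7 ASO. In the control libraries alone it was U13__dup5_54183. The mean share of U13__dup9_574694 was 17.5% ± 12.5 and 54.9% ± 13.3. This is a description with no test, since the locus leads only through its U7 ASO reads. In the other 4 names with several loci the lead was the same in the controls alone. For U17_dup1_64816 the share was 84.0% ± 0.54 and 79.8% ± 3.30, lower in all 3 U7 ASO libraries (exact two-sided permutation p = 0.1, the smallest possible, adjusted p = 0.4 over 4 names). For U3, U13 and U14 the shares overlapped, with exact permutation p from 0.3 to 1. U8 has 1 locus and was not compared.

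**Figure D4:**
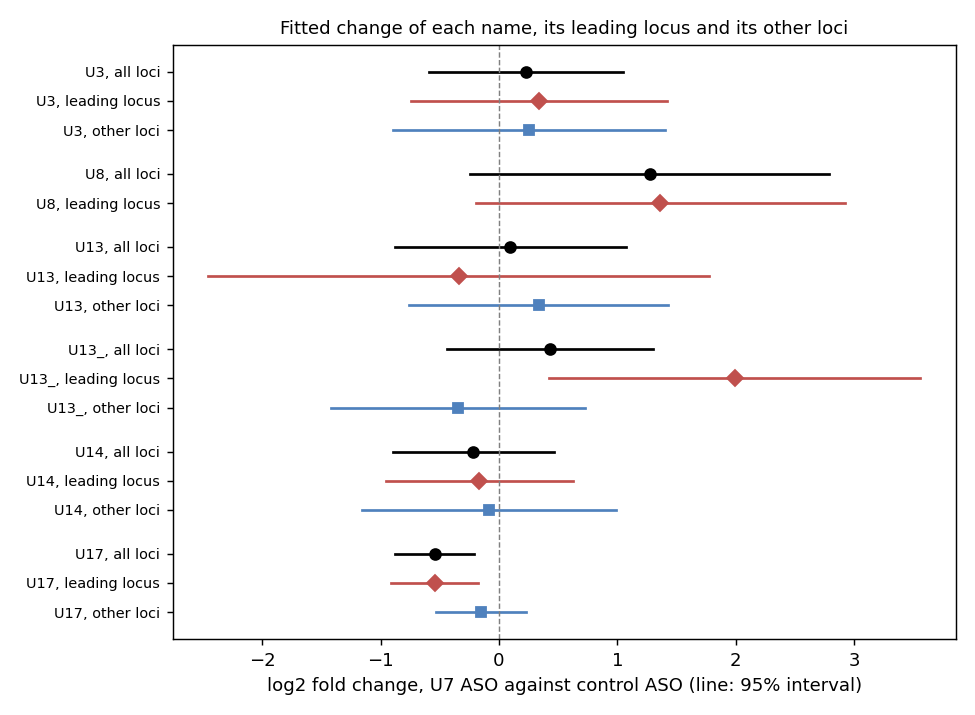
Fitted log2 fold change, U7 ASO against control ASO, with its 95% interval, for each snoRNA name, its leading locus and the sum of its other loci. The U17 sum (−0.87 to −0.21) and leading locus (−0.91 to −0.18) have intervals below 0, and none of the 17 passed after adjustment. The U13_ leading locus (0.42 to 3.56) was chosen as lead through the U7 ASO reads compared here, so its interval above 0 is a description.

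In a table that held each name's leading locus and its other loci apart, 0 of 11 snoRNA entries passed, against 117 of 3286 (3.56%) over all entries. The leading U17 locus had a log2 fold change of −0.54 there (SE 0.17, edgeR adjusted p = 0.114) and the other U17 loci one of −0.15 (SE 0.18, edgeR adjusted p = 0.776). The locus and this table were scaled separately, which is why U17_dup1_64816 has 2 fitted values. Among single loci, 11 of the 51 passed the count filter, 0 of them were called, and the adjusted p ran from 0.168 to 0.996. At 2 of the 11, U13__dup9_574694 and U17_dup1_64816, the groups stood fully apart, against 20.6% of all loci tested. U13__dup9_574694 entered the test through the group in which it was higher, with 1 control and 3 U7 ASO libraries at the filter, so its separation is a description. The 40 untested loci held between 1 and 58 reads each, with a median of 4.5.

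Other RNAs of the ribosome and of the small nuclear particles gave the setting for these values. Of the 3 ribosomal RNA names 0 were raised and 0 lowered. LSU-rRNA_Hsa had a log2 fold change of 0.07 (SE 0.16, edgeR adjusted p = 0.894) and SSU-rRNA_Hsa one of −0.52 (SE 0.32, edgeR adjusted p = 0.4999). That of 5S was 0.65 (SE 0.31, edgeR adjusted p = 0.349), with overlapping groups. The RNA had been depleted of ribosomal RNA, so these are reads left after depletion. Of the 6 spliceosomal and U7 names 5 were tested, and 2 (over all names 2.55%) fell, U2 (log2 fold change −1.36, SE 0.35, edgeR adjusted p = 0.0362) and U4 (−0.79, SE 0.21, edgeR adjusted p = 0.0454). The U2 call was lost in 6 of 13 alternatives, 4 of which left out 1 library: control replicate 1 or 2, or replicate 2 or 3 of the U7 ASO (adjusted p up to 0.211). That of U4 was lost in 8, among them the same 4 fits and the one without control replicate 3 (adjusted p up to 0.277). Of the 7 names of other short structured RNAs 0 were called. An unadjusted edgeR p under 0.05 was found for 3 of them, and for 326 of all 2236 names tested. Log2 fold changes were below 0 in 5 of the 7 and above 0 in 2. HY3 (−0.73, SE 0.20, edgeR adjusted p = 0.0582) came nearer to the threshold than U17 (edgeR adjusted p = 0.0838). Median log2 fold changes were −0.45 over the tested spliceosomal names and −0.47 over the other short structured RNAs, against 0.16 over the snoRNA names. That snoRNA median counts each name alike, with 4 names above 0 and 2 below. U17, which held most of the snoRNA reads, stood at −0.54, on the same side as the medians of the spliceosomal and other short structured RNAs. The median over the 3 ribosomal RNA names was 0.07, with 2 names above 0 and 1 below.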

How the data were processed

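For every library the authors deposited raw read counts, 1 row for each repeat locus. Reads were checked with FastQC 0.11.5, and STAR 2.5.3a, featureCounts 1.5.0-p1 (Subread) and GRCh38 are named, per the submitters' processing notes. For the repeat annotation, the strand setting and reads mapping to several places, the setting is not given in the sources used. Of 151 counts above 0 at snoRNA loci 66.9% were even numbers, so a count may be a mate rather than a fragment.

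Groups and replicate numbers were read from the sample titles. Counts were tested under R 4.3.3 with edgeR 4.0.16 (glmQLFit, glmQLFTest, two-sided, TMM scaling, filterByExpr with a minimum count of 10 and a minimum total of 15). The 3 tables tested held single loci, sums over a repeat name, and each name's leading locus beside the sum of its other loci. P-values were Benjamini-Hochberg adjusted over each whole table, with a threshold of 0.05. Standard errors were derived from fold changes and F statistics. Shares and ratios within libraries were compared by exact permutation tests, except the leading share of U13_, whose lead rests on the libraries compared. Alternatives were DESeq2 1.42.0, limma-voom (limma 3.58.1), other scalings, no count filter, a replicate block and leaving out each library. Code was tested on simulated data. Of seeded changes that met the count filter there, the test over loci called 0% of 2-fold and 18.1% of 4-fold ones. The test over names called 35.4% and 71.9%. Having 0 calls among snoRNA loci or names therefore does not show that they were unchanged. Members, lists and rules were chosen with earlier results of these data known. Named were the 6 names, their leading loci, the most counted or tested other loci, and tested neighbours within 10 running numbers. U13_dup5_3583732, U17_5063670, U14_dup2_3680523 and HY3 were chosen after their values were seen.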

Additional observations from a re-analysis of the deposited data

How the results depend on the processing

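Only U17 changed its call among the snoRNA names. Its log2 fold change was negative in all 13 alternatives, and its sum passed with limma-voom (−0.56, adjusted p = 0.0227), without a count filter (−0.53, adjusted p = 0.0492), with the replicate block (−0.56, adjusted p = 0.00500) and without U7 ASO replicate 1 (−0.68, adjusted p = 0.00252). With 1 library left out at a time it ran from −0.68 to −0.40. The leading U17 locus, set apart from the other loci, passed with limma-voom (−0.56, adjusted p = 0.0488), the replicate block (−0.56, adjusted p = 0.0125) and without U7 ASO replicate 1 (−0.70, adjusted p = 0.0163). Over single loci it passed without a count filter (−0.43, adjusted p = 1.35e-14), which also brings in loci with almost no reads. With the filter its fold change was nearly the same (−0.41, edgeR adjusted p = 0.540). The median log2 fold change over all loci without the filter was 1.52, so this smaller p does not show a larger change. The cause of the U17 values was not tested.

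The number of called loci was 713, and 420 with limma-voom. Called names numbered 57, and 89 with DESeq2 and 133 with the replicate block. In the table of leading and other loci the number was 117, and 187 with DESeq2 and 220 with the replicate block. With 1 library left out at a time these counts ran from 313 (without U7 ASO replicate 1) to 665 for loci, from 33 (without U7 ASO replicate 3) to 122 (without U7 ASO replicate 1) for names, and from 81 to 156 for the third table. The labels do not say that replicate numbers pair libraries. Same-numbered libraries deviated together with correlations of 0.12, −0.03 and 0.12 over names, so the pairing is not shown, and not every library correlated best with its own number.

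Values near 0 changed sign without passing. The locus U14_3487024 turned from 0.076 to −0.037 with library totals as the only scaling, −0.079 with upper-quartile scaling, −0.67 with limma-voom, −0.56 with the replicate block and −0.054 with totals without ribosomal RNA and 7SK, an alternative chosen after seeing the data. U17_64813 turned to 0.022 with DESeq2. With 1 library left out at a time, log2 fold changes of names ran from −0.049 to 0.46 for U3, −0.092 to 0.25 for U13 and −0.63 to 0.00080 for U14. Those of loci ran from −0.63 to 0.14 for U13_dup1_2484483, −0.39 to 0.21 for U14_dup1_3487026, −1.17 to 0.65 for U14_3487024 and −0.082 to 0.057 for U17_64813. For the leading U14 locus they ran from −0.55 to 0.072 in the third table, for the other U14 loci from −0.46 to 0.16 and for the other U3 loci from −0.074 to 0.70. The U13_ leading share turned from 37.4 to −27.3 percentage points when the lead was chosen in the controls, since another locus then leads. The median over all tested loci was 0.06 with TMM scaling and −0.09 with upper-quartile scaling, and the loci of U8, U3 and U13__dup9_574694 kept their direction under both. Counts under 60 reads a library limit every box C/D locus except U14_dup1_3487026.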

Other observations

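LFSINE_Vert_dup72_3680528, an ancient short interspersed element, is listed 2 running numbers after U14_dup4_3680526, and this locus was singled out after its values were seen. Its reads numbered 2001, 1752 and 2047 with the control ASO, against 4641, 5035 and 5345 with the U7 ASO. It rose from 1258 ± 64.4 to 2993 ± 108 CPM (n = 3 each, log2 fold change 1.25, SE 0.22, edgeR adjusted p = 0.00234), with no overlap between the groups. The call was lost in 1 of 13 alternatives, without control replicate 2 (adjusted p = 0.0706). U14_dup4_3680526 beside it held 3, 8 and 8 reads and then 6, 10 and 10.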
